A study of Homo sapiens with 13 samples.

Results

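In MDA-MB-231 cells, an established line from a human breast tumour, 1248 regions of the genome held peaks of YAP, TAZ and JUN and no listed peak of TEAD4, a member of the DNA-binding family through which YAP and TAZ are best known to reach chromatin. Without TEAD4 here means that no peak was listed, not that the protein was shown to be absent. The regions came from chromatin immunoprecipitation and sequencing (ChIP-seq), in which cross-linked, sonicated chromatin is pulled down with an antibody and the recovered DNA is sequenced. They were chosen from the peak lists themselves: overlapping peaks of the 4 lists were merged, and merged regions with at least 1 YAP, 1 TAZ and 1 JUN peak and without a TEAD4 peak were taken. This gave 1248 of 28100 merged regions (4.44%), or 22.6% of the 5532 regions that held YAP, TAZ and JUN. The remaining 4284 of those 5532 regions also held TEAD4 and serve here as the main set against which the 1248 are described.

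All 13 libraries were made from the same line, grown in DMEM:F12 with serum, and the labels name no treatment or genetic change. YAP and TAZ had 2 ChIP libraries each, both set against the same 2 rabbit IgG libraries. TEAD4 and JUN had 2 ChIP libraries each, set against mouse IgG, of which there were 3 libraries with 1 of them used for both factors. One peak list per factor was analysed, so no value below has a spread between replicates, and the read depth is unknown here. The presence, absence and strength of the peaks come from the same ChIP against IgG contrasts that chose the regions, and they are given as a description without a test. Intervals printed with shares are exact binomial (Clopper-Pearson) 95% intervals. They cover counting error only and take regions as independent, although neighbouring regions may not be. Positions are on hg19, and regions are named by position alone, since genes on that build were not analysed here.

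YAP and TAZ (the product of the WWTR1 gene) are paralogous coactivators that the Hippo pathway keeps out of the nucleus when it is active. Neither binds DNA by itself; both are carried to DNA by partner proteins, chiefly the TEAD family, of which TEAD4 is the member mapped here. JUN is a subunit of AP-1, a dimeric transcription factor that binds DNA directly and is known for responses to growth factors and stress. The other TEAD proteins were not analysed here.

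Nearly all of the 1248 regions had a simple make-up. In 1237 of them there was exactly 1 peak of YAP, 1 of TAZ and 1 of JUN, and 8 of the other 11 differed from this by a second TAZ peak alone. The 1248 regions took up 1250 (16.2%) of the 7709 YAP peaks, 1257 (12.8%) of the 9798 TAZ peaks and 1249 (5.09%) of the 24554 JUN peaks. Only 1 region had no direct overlap between its YAP and TAZ peaks, and 1 had none between its YAP and JUN peaks. The merged regions had a median width of 883 bp, against 920 bp for regions with all 4 factors.

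No region lay close to the overlap limit of 1 bp. The nearest TEAD4 peak outside any of the 1248 regions lay 122 bp from the edge of a region at 119683314 to 119684482 on chromosome X, with its summit 1026 bp from the YAP summit. The next nearest lay 130 bp from a region at 96816729 to 96817703 on chromosome 15 and from another at 70950013 to 70950869 on chromosome 18. The TEAD4 peaks beside these 3 regions were enriched 9.54-fold, 8.76-fold and 9.48-fold over IgG, above the median of 7.20-fold for the TEAD4 list. On the other side of the limit, the least overlap of a TEAD4 peak with another peak in a region with all 4 factors was 254 bp, on chromosome 20 (42410761 to 42411194), and its TEAD4 summit fell 3 bp from the YAP summit. The next were 261 bp on chromosome 4 and 267 bp on chromosome 13, with TEAD4 enrichments of 5.28-fold and 5.94-fold. In 4 of the 4284 regions the TEAD4 peak overlapped the JUN peak but no YAP or TAZ peak.

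YAP and TAZ were weaker at the regions without TEAD4 than at those with it, while JUN was about equally strong. The authors' fold enrichment of YAP over IgG had a median of 6.39 at the regions without TEAD4 (quartiles 5.67 and 7.33), against 8.25 at the regions with all 4 factors (6.61 and 10.8). For TAZ the medians were 6.48 (5.62 and 7.58) without TEAD4 and 8.64 (6.81 and 11.2) with it. For JUN they were 14.1 (10.8 and 18.2) without TEAD4 and 14.2 (11.1 and 18.1) with it. The ratio of the medians was 0.775 for YAP, 0.750 for TAZ and 0.993 for JUN. All ranges overlapped: YAP enrichment ran from 3.09 to 16.6 without TEAD4 and from 3.71 to 38.2 with TEAD4.

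Set within each list, the median YAP peak of these regions stood at percentile 31.4 of the YAP list, the median TAZ peak at percentile 41.7 of the TAZ list and the median JUN peak at percentile 68.5 of the JUN list. At regions with all 4 factors the percentiles were 62.6 for YAP, 69.9 for TAZ and 69.1 for JUN. At regions with YAP and TAZ and neither TEAD4 nor JUN they were 33.7 for YAP and 37.9 for TAZ. The JUN peaks of the 1248 regions were thus drawn from the upper part of the JUN list, as at regions with all 4 factors. Each list was cut into 10 parts of equal size by p. The strongest JUN part held 252 (20.2%) of the 1248 regions and the weakest 35 (2.80%). The YAP peaks lay at the other end, with 3 of the 1248 regions (0.240%) in the strongest YAP part and 218 (17.5%) in the weakest. The TAZ peaks gathered in the middle of their list. The strongest TAZ part held 3 regions (0.240%), part 5 held 217 (17.4%) and the weakest 103 (8.25%). The TAZ list is longer and held many peaks without YAP, which the rule leaves out. Among them were 1119 regions with TAZ and JUN alone (median TAZ 5.57) and 486 with TAZ alone (5.68). Such regions with YAP in place of TAZ numbered 207 (median YAP 5.81) and 153 (5.72). Positions in the YAP and TAZ lists are therefore not on a like footing. JUN peaks that no other factor joined had a median enrichment of 11.0, and those with TAZ but without YAP and TEAD4 one of 13.1. At the 307 regions with YAP and TAZ and neither TEAD4 nor JUN, YAP had a median enrichment of 6.51 and TAZ one of 6.28, near the values at the regions with JUN. At the 1209 regions with YAP, TAZ and TEAD4 and no JUN, the medians were 7.92 and 7.87.

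**Figure D1:**
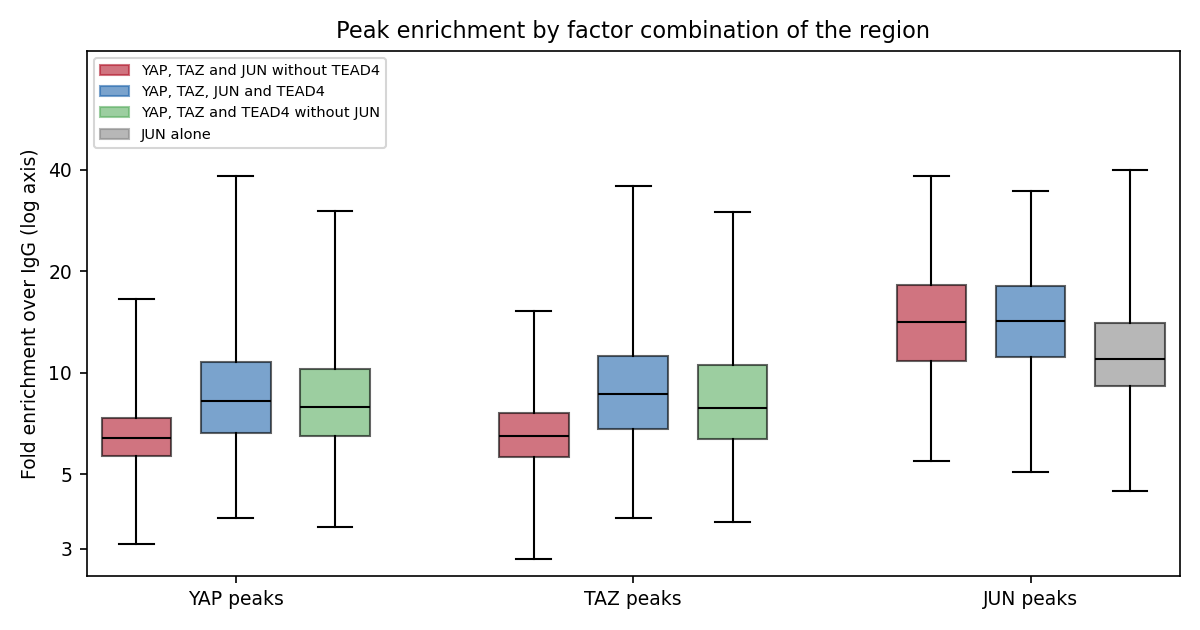
Fold enrichment over IgG (log axis) of the YAP, TAZ and JUN peaks in regions of 4 factor combinations; boxes span the quartiles with the median as a line, and whiskers reach the lowest and highest peak. YAP and TAZ boxes of the regions without TEAD4 sit lower (medians 6.39 and 6.48) than those of the regions with all 4 factors (8.25 and 8.64), while the JUN boxes nearly coincide (14.1 and 14.2).

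The share of regions without a TEAD4 peak moved with YAP and TAZ strength and hardly with JUN strength. The 5532 regions with YAP, TAZ and JUN were ordered by the enrichment of 1 factor and cut into 10 parts of equal size. Ordered by YAP, 3 of 554 regions (0.542%, 0.112 to 1.57) lacked TEAD4 in the strongest part and 104 of 553 (18.8%, 15.6 to 22.3) in part 5. The share was 40.7% (36.6 to 44.9) in part 9 and 39.1% (35.0 to 43.3) in the weakest, so more than 50% of the regions held TEAD4 even where YAP was least enriched. Ordered by TAZ, the share ran from 0.361% (0.0438 to 1.30) in the strongest part to 45.4% (41.2 to 49.6) in the weakest. Ordered by JUN, it stayed between 20.8% and 24.8% in all 10 parts, with 23.8% (20.3 to 27.6) in the strongest and 24.6% (21.1 to 28.4) in the weakest.

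**Figure D2:**
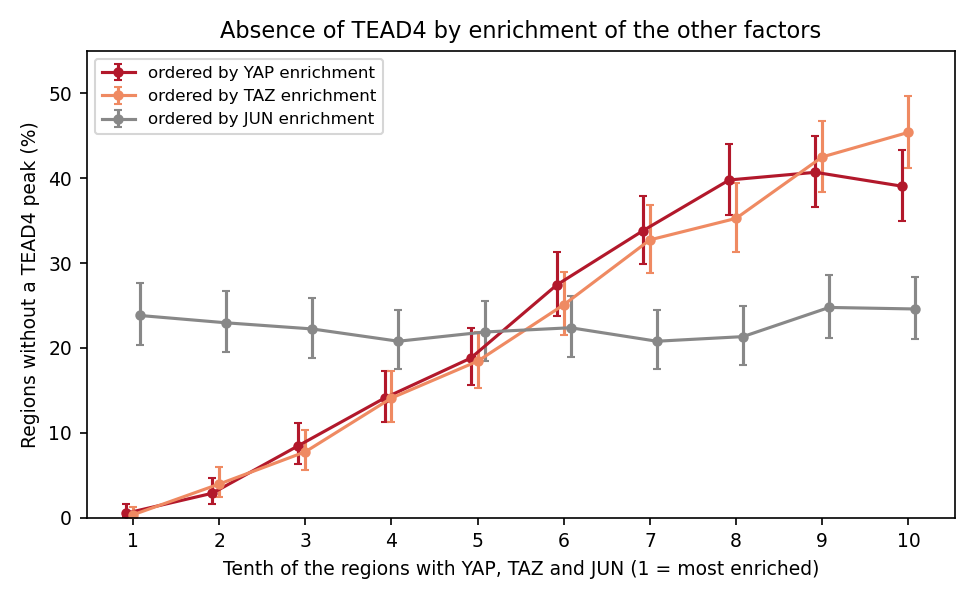
Share of the regions with YAP, TAZ and JUN that held no TEAD4 peak (%), in 10 equal parts ordered by YAP, TAZ or JUN enrichment (1 is the most enriched); bars are exact binomial 95% intervals. The share climbs along the YAP and TAZ orders, to 39.1% and 45.4% in the weakest part, and stays between 20.8% and 24.8% along the JUN order.

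Regions of like YAP enrichment were also set side by side, in 3 equal parts of the 5532 regions. In the middle part, JUN had a median enrichment of 15.4 at the 440 regions without TEAD4 and 14.0 at the 1404 with it. In the strongest part the JUN medians were 16.3 at 85 regions without TEAD4 and 15.3 at 1759 with it. In the weakest part they were 13.4 at 723 and 13.3 at 1121 regions. TAZ was lower without TEAD4 in each part, with medians of 9.95 without and 11.9 with TEAD4 in the strongest, 7.26 and 8.07 in the middle and 5.90 and 6.13 in the weakest. The parts did not match YAP fully: its medians were 9.83 without TEAD4 and 11.5 with it in the strongest part, 7.36 and 7.70 in the middle and 5.81 and 5.81 in the weakest. Where TEAD4 was present, its own enrichment had a median of 11.0 in the strongest part by YAP, 7.71 in the middle and 6.47 in the weakest. The least enriched peak of the whole TEAD4 list stood at 2.90, and the lowest −log10 p of that list was 24.7. The list was not cut at a fixed enrichment, so 2.90 is not a limit of detection.

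Across the 1248 regions, the enrichment of YAP went with that of TAZ (Spearman rho 0.70 across regions) and little with that of JUN (rho 0.20; TAZ with JUN, 0.25). Over the 4284 regions with TEAD4, rho was 0.90 for YAP and TAZ and 0.15 for YAP and JUN. The points share their libraries, and YAP and TAZ also share the IgG control and, going by raw file names, the sequencing run; the span of YAP enrichment was narrower without TEAD4. Names in the TAZ list are tagged with both proteins, and whether that list was called on TAZ libraries alone is not stated, which limits what every YAP and TAZ value set side by side here can mean. TAZ enrichment divided by YAP enrichment in the same region had a median of 1.01 (5th and 95th percentiles 0.790 and 1.33) without TEAD4 and 1.04 (0.810 and 1.32) with it. TAZ exceeded YAP at 52.4% of the regions without TEAD4 and at 60.6% of those with it.

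**Figure D3:**
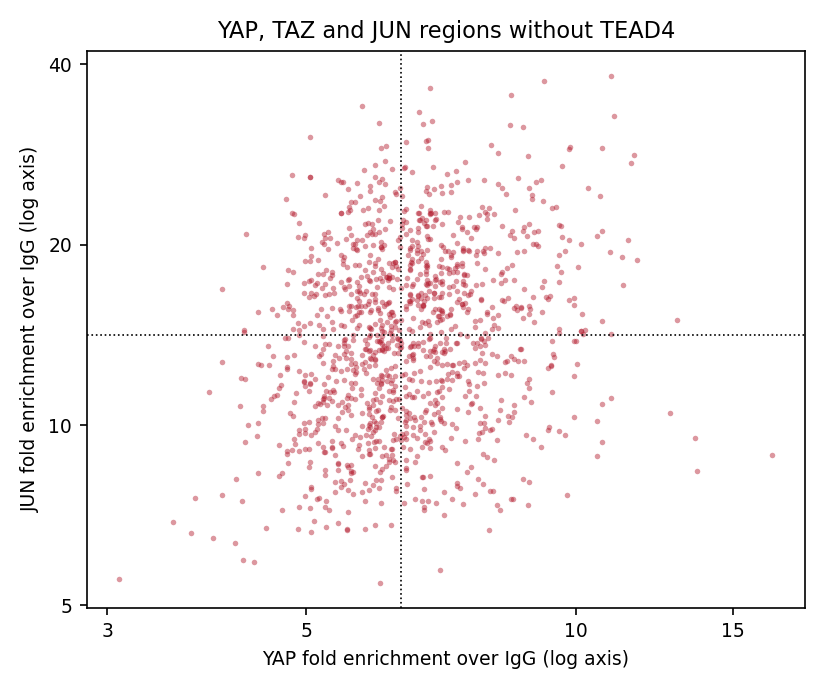
JUN against YAP fold enrichment over IgG (both log axes), 1 point for each of the 1248 regions; dotted lines mark the medians, 6.39 for YAP and 14.1 for JUN. The points form a wide cloud (rho 0.20), with JUN peaks on both sides of the JUN median over most of the YAP range and few regions above 10-fold YAP enrichment.

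The region with the highest JUN enrichment lay on chromosome X (102911202 to 102912665). Its JUN peak, 38.2-fold over IgG, was the second most enriched of the whole JUN list, with YAP at 10.9-fold and TAZ at 10.7-fold, the 3 summits within 21 bp of each other and the nearest TEAD4 peak 202341 bp away. The region came second by the mean rank of the 3 enrichments among the 1248 regions. The first was on chromosome 19 (1264769 to 1266756), with YAP at 11.6-fold, TAZ at 12.2-fold and JUN at 28.3-fold, and a TEAD4 peak 10871 bp away. Over the first 10 by mean rank, YAP ran from 8.74 to 11.6, TAZ from 9.71 to 12.3 and JUN from 24.1 to 38.2, which for YAP and TAZ lies above the medians of the regions with all 4 factors (8.25 and 8.64) but below their highest values (38.2 and 35.8). The third was at 66417246 to 66418453 on chromosome 7, with JUN at 29.0-fold, and the fourth at 4910934 to 4912662 on chromosome 19, with JUN at 27.3-fold. The fifth was the region on chromosome X with TEAD4 at 122 bp, where YAP reached 9.86-fold, TAZ 12.2-fold and JUN 29.1-fold. Places 6 to 8 went to 145764625 to 145765583 on chromosome 2, 107833016 to 107833964 on chromosome 9 and 64947706 to 64948835 on chromosome 17. The last of them were 68741006 to 68742280 on chromosome 16 and 134858102 to 134858993 on chromosome 6.

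Single regions departed from this order in each direction. The highest YAP enrichment, 16.6-fold, was on chromosome 12 (56551148 to 56552475), where TAZ reached 15.1-fold, JUN was weak at 8.90-fold and its summit lay 415 bp from that of YAP, while the YAP and TAZ summits were 11 bp apart. The highest TAZ enrichment, 15.2-fold, was on chromosome 4 (1036972 to 1038533), where YAP was enriched 6.84-fold and its strongest summit lay 413 bp from the TAZ summit, with JUN at 29.9-fold 34 bp from YAP. The last region by mean rank, on chromosome 20 (57225536 to 57227733), had YAP at 3.09-fold, TAZ at 2.81-fold and JUN at 5.54-fold, the first 2 of these being the lowest over all 1248 regions, yet its summits fell within 11 bp.

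Over all regions, the median distance between the YAP and JUN summits was the same without and with TEAD4, and that between YAP and TAZ was longer without it. The longer distance was seen in the middle and strongest parts by YAP enrichment, though not in the weakest. In the 1237 regions with 1 peak of each factor, the median distance between YAP and JUN summits was 26 bp (quartiles 12 and 53) without TEAD4, and 26 bp (11 and 51) in the 4129 such regions with TEAD4. Between YAP and TAZ it was 22 bp (10 and 41) without TEAD4 and 16 bp (7 and 32) with it. In the weakest of the 3 parts by YAP enrichment, the YAP to TAZ median was 22 bp without and 22 bp with TEAD4, in the middle part 24 bp without and 18 bp with TEAD4, and in the strongest part 17 bp without and 12 bp with TEAD4. The YAP to JUN median was 27 bp without and 29 bp with TEAD4 in the weakest part, 25 bp and 27 bp in the middle and 19 bp and 24 bp in the strongest, slightly shorter without TEAD4 in each. Where TEAD4 was present, its summit lay a median of 17 bp from YAP and 29 bp from JUN.

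The order of the 3 summits was compared over all regions, without matching on YAP enrichment. The YAP summit was nearer to TAZ than to JUN in 55.5% (52.6 to 58.3) of the 1215 regions without a tie, against 63.6% (62.1 to 65.1) of 4046 regions with TEAD4. The JUN summit fell between the YAP and TAZ summits, or on one of them, in 30.2% (27.6 to 32.8) of regions without TEAD4 and 23.9% (22.6 to 25.3) with it. All of the YAP, TAZ and JUN summits lay within 50 bp in 59.4% (56.6 to 62.2) of regions without TEAD4 and 65.1% (63.6 to 66.6) with it. A JUN summit more than 200 bp from YAP was found at 63 of the 1237 regions (5.09%, 3.94 to 6.47) and at 5.47% (4.80 to 6.21) of those with TEAD4. These 63 regions had wide JUN peaks (median 1326 bp, against 826 bp at the remaining 1174), with JUN enriched 13.2-fold against 14.2-fold and YAP 6.21-fold against 6.39-fold.

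**Figure D4:**
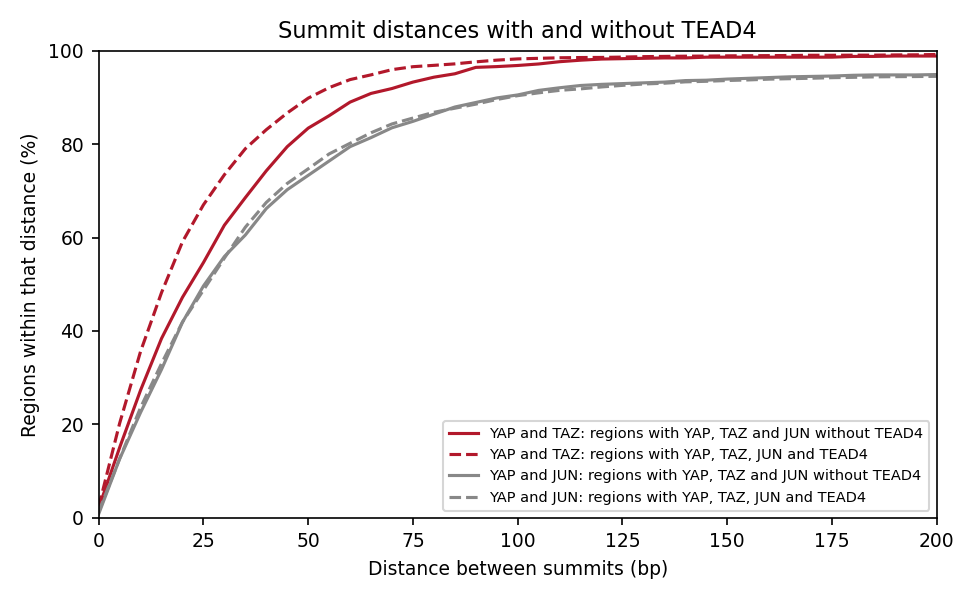
Share of regions (%) whose summits lie within a given distance (bp), for YAP and TAZ (red) and YAP and JUN (grey), in regions without TEAD4 (solid) and with it (dashed); regions have 1 peak of each factor. The grey lines nearly coincide (median 26 bp in both), and the solid red line lies below the dashed red line (medians 22 and 16 bp).

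The nearest TEAD4 peak lay a median of 53539.5 bp away (quartiles 11760.5 and 165006), against 38693.5 bp from regions with all 4 factors to the next TEAD4 peak outside them, and 64361 bp from JUN peaks that stood alone. A TEAD4 peak lay within 1 kb of 42 of the 1248 regions (3.37%, 2.44 to 4.52), beside 3.16% of all merged regions, and within 10 kb of 272 (21.8%, 19.5 to 24.2), beside 19.8% of all merged regions, so both shares were near those of merged regions in general. The nearest merged region of any kind was a JUN peak alone in 55.3% and a region with all 4 factors in 17.7%, at a median of 9084 bp over all kinds. For regions with all 4 factors these shares were 54.2% and 19.0%. Over all merged regions, the nearest was a JUN peak alone in 56.9%, near the share of the 1248.

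The 1248 regions were also spread over the autosomes and chromosome X. The share of YAP, TAZ and JUN regions that lacked TEAD4 ran from 18.5% (14.0 to 23.7) on chromosome 8 to 27.8% (17.9 to 39.6) on chromosome X, and the intervals of both took in the share over the genome, 22.6%. Of the 100-kb windows with any of the 1248 regions, 1106 held 1, 65 held 2 and 4 held 3. The same count was not made for other regions, so how far the 1248 regions group compared with others is not known here. The 4 windows with 3 were 60600001 to 60700000 on chromosome 5, both 26200001 to 26300000 and 137400001 to 137500000 on chromosome 9, and 33500001 to 33600000 on chromosome 19. Among these, the window at 137400001 on chromosome 9 was the only one that also held regions with all 4 factors, 2 of them.

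Each TEAD4 peak has a number in its name; these numbers increase with position on every chromosome, and the highest is 28115, while 8406 peaks are listed. If the numbers count all candidate peaks, a jump between neighbouring listed peaks tells how many candidates between them were left out of the list, though not where they lay. Of the 1242 regions with listed TEAD4 peaks on both sides, only 6 (0.483%, 0.177 to 1.05) lay in an interval with no unlisted candidate. Over all regions without TEAD4 the share was 4.56%, and for JUN peaks alone, which make up most of those regions, 5.32% (4.98 to 5.68). The low share was not particular to the regions with YAP, TAZ and JUN: it was 0.330% (0.00836 to 1.83) at the regions with YAP and TAZ and neither TEAD4 nor JUN, 1 of 303, and 0.809% (0.371 to 1.53) at those with TAZ and JUN and neither YAP nor TEAD4. Regions between the same neighbouring TEAD4 peaks share 1 outcome. The 1242 regions lay in 1069 such intervals, and 16158 regions of JUN alone in 5250. The binomial ranges of these shares are therefore too narrow. Around the YAP, TAZ and JUN regions the intervals held a median of 5 unlisted candidates over a median span of 389 kb, and around JUN alone 4 over 438 kb, so in long intervals the numbers say little about a single site.

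If the numbers count all candidate peaks, short intervals narrow down where a candidate can lie. Between 110 pairs of neighbouring TEAD4 peaks, the interval held a region with YAP, TAZ and JUN and no other merged region. In the 21 such intervals of up to 20 kb, 20 had an unlisted TEAD4 candidate (95.2%, 76.2 to 99.9), and in 14 of them it was exactly 1. Intervals of that length whose one merged region was JUN alone had a candidate in 108 of 218 cases (49.5%, 42.7 to 56.4), and intervals with no merged region in 204 of 1420 (14.4%, 12.6 to 16.3). The median lengths were 10.8 kb, 10.2 kb and 4.65 kb. From 20 to 50 kb, the shares were 93.3% (77.9 to 99.2) of 30 intervals, 65.7% (59.9 to 71.2) of 283 and 26.0% (22.2 to 30.1) of 492. Counted over all intervals of up to 20 kb, whatever else they held, a candidate was present around 38 of 39 regions with YAP, TAZ and JUN, 33 of 33 with TAZ and JUN alone and 6 of 6 with YAP and TAZ alone, against 212 of 336 JUN peaks alone (63.1%). The JUN peaks alone were weaker, with a median of 11.0-fold against 14.1-fold, and the part of JUN strength in this difference was not tested.

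**Figure D5:**
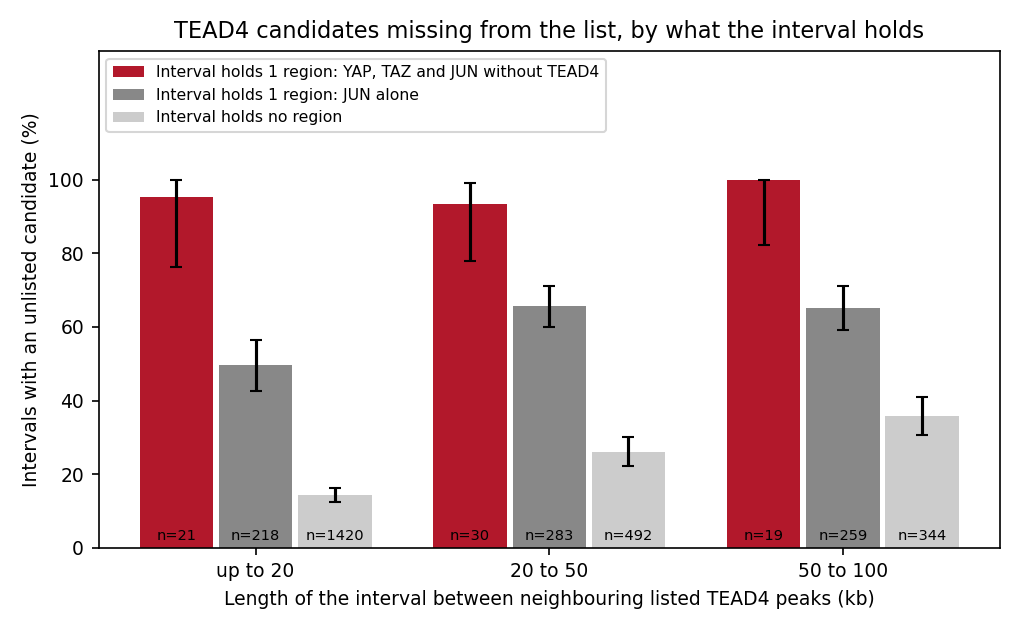
Share of the intervals between neighbouring listed TEAD4 peaks (%) that hold at least 1 candidate missing from the TEAD4 list, by interval length (kb) and by the merged region inside. Candidates are read from jumps in the numbers of the peak names, on the assumption that these count all candidate peaks. Bars are exact binomial 95% intervals and n counts intervals. Up to 20 kb the share was 95.2% around regions with YAP, TAZ and JUN, 49.5% around JUN alone and 14.4% where the interval held no region.

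If the numbers count all candidate peaks, there were 6 regions around which no TEAD4 candidate was left out. They were 183499431 to 183500168 on chromosome 4, 43944017 to 43945276 on chromosome 7, 37001981 to 37002949 on chromosome 8, 35709869 to 35711026 on chromosome 10, 64312839 to 64314464 on chromosome 11 and 71009644 to 71010368 on chromosome 17. Their YAP enrichment ran from 4.26 to 7.00, TAZ from 4.63 to 7.15 and JUN from 8.65 to 17.0, within the range of the other regions. Their YAP, TAZ and JUN summits lay within 13 to 63 bp of each other. The nearest listed TEAD4 peak lay 566 bp from the region on chromosome 8, and 3524 to 158662 bp from the others. These 6 were singled out after their values were seen.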

How the data were processed

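The 4 ChIP-seq peak lists of the series were used (2 libraries per factor, with 2 rabbit and 3 mouse IgG libraries; grouped by title and antibody). The submitters' processing notes name hg19, MACS2 2.0.10, SAMtools, Bowtie 0.12.7 and CASAVA. Peaks were called by the authors, per the labels, against pooled IgG within the IDR (irreproducible discovery rate) framework at 0.01, giving 1 list per factor. Each deposited peak carries a fold enrichment over IgG (a ratio), a −log10 p, a summit offset (another measure, in bp) and a score; the authors' deposited score is 10 times the −log10 p. Enrichment is the authors' value for each peak. TAZ peaks have names tagged with both YAP and TAZ, and JUN peaks have a replicate tag unlike that of the other lists; no source used here says what these tags mean. By the raw file names, YAP and TAZ share a sequencing run and IgG, and share neither with TEAD4 and JUN; run, IgG and factor cannot be told apart.

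Peaks overlapping by 1 bp or more were merged (Python 3.11.15, pandas 2.3.3, SciPy 1.17.1) and the strongest peak of each factor taken per region. The steps were tested on simulated lists. With no values per replicate, no test between groups was made. Read depth is unknown. The regions and measures were chosen with earlier results of these data known. Named regions are the 10 with the best mean rank, the last, the highest of each factor, those nearest the overlap limit and the fullest 100-kb windows. Genes, start sites, motifs and sequences were planned where an hg19 reference was at hand and were not analysed here. Alternatives were other overlap rules, narrowed peaks, shorter lists, stricter absence of TEAD4 and −log10 p in place of enrichment.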

Additional observations from a re-analysis of the deposited data

How the results depend on the processing

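Of 73 alternative values for 13 results, 55 fell inside the reported value's 95% interval (for counts, within 1.5 times) and 18 moved. For medians that interval came from the ordered values, and for ratios it left out the error in the median with TEAD4. A change of direction was judged only for the ratios of medians under −log10 p, where YAP and TAZ stayed below 1. The comparison with TEAD4 was not set out under the other alternatives. The list lengths mattered most. With the stronger 50% of each list, 599 regions held YAP, TAZ and JUN without TEAD4, and with lists of equal length 646, against 1248 as reported. Of the 599, 428 (71.5%) hold a TEAD4 peak in the full list and 171 are among the 1248; of the 646, 73 and 573. With the stronger 50%, the median enrichment was 8.51 for YAP, 8.79 for TAZ and 16.7 for JUN, the YAP to JUN summit distance 22 bp, the distance to the nearest TEAD4 peak 80946 bp and the share with no unlisted TEAD4 candidate 0%. The higher enrichments follow from keeping only strong peaks. The TEAD4 list was halved too, which left fewer TEAD4 peaks to lie near a region. Its dropped peaks then counted as unlisted candidates. The TEAD4 distance and the 0% are therefore not comparable with the values from the full lists. The cause of the other moves was not tested. For lists of equal length, each was cut to its 7709 strongest peaks by p. This left the YAP list whole and cut the JUN list from 24554, so weaker JUN peaks could no longer enter a region. The medians were then 6.65 for YAP, 7.03 for TAZ and 17.7 for JUN. A reciprocal overlap of 50% gave 6.49 for YAP, 6.61 for TAZ and 46576 bp to TEAD4. Of its 1111 regions, 77 (6.93%) hold a TEAD4 peak under the reported rule. The part of these 77 in the moves was not tested. Peaks narrowed to 200 bp gave 1.29% with no unlisted candidate, and 61 of the 1246 regions (4.90%) hold TEAD4 under the reported rule. The cause of this move was not tested. With −log10 p in place of enrichment, the ratio of medians without over with TEAD4 was 0.610 for YAP and 0.599 for TAZ. Overlap rules other than list length gave 1111 to 1246 regions. No paired analysis was possible because each factor has 1 list for both replicates, and for the same reason no replicate could be left out. Alternatives on start sites and motifs were not run. Depth is unknown, and so is what it limits.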
